A study of Homo sapiens with 48 samples.

Results

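Mitotic genes, the genes whose products take a cell through entry into mitosis, spindle assembly, chromosome segregation and cytokinesis, were measured on 48 Illumina HumanHT-12 arrays of breast cancer cells treated with BV6. BV6 is a SMAC mimetic, a small molecule that antagonises the inhibitor of apoptosis (IAP) proteins. The set held 44 genes out of 11212 that had a detected probe. They were chosen by symbol from a list of mitotic regulators, and a gene was kept where a probe was detected (detection p below 0.01) on at least 3 arrays. Where a gene had several such probes, its brightest probe stood for it. All 44 listed genes passed, through 65 detected probes out of 67, and 19 genes had more than 1 detected probe. Just inside the detection rule, MKI67 was detected on 24 arrays and KIF15 on 31, and just outside it were a BUB3 probe detected on 2 arrays and a NUF2 probe detected on 0. A set of 29 genes was detected on all 48 arrays.

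The arrays formed 20 groups in 3 experiments. In the first, MDA-MB-231, a triple-negative breast cancer line of mesenchymal character, was transfected with siRNA named for RELA, IRF1 or TNFR1 (siRELA, siIRF1 and siTNFR1) or with control siRNA (siCtrl), and was then given 50 nM BV6 for 9 h or left untreated, with n = 3 arrays in each of 8 groups. In the second, untransfected MDA-MB-231 cells were harvested 3, 6, 9, 12 and 15 h after addition of 50 nM BV6, and untreated cells were taken at 0, 9 and 15 h, with n = 2 in each of 8 groups. In the third, EVSA-T, another breast cancer line, received siTNFR1 or siCtrl and then 5 nM BV6 for 9 h or no treatment, with n = 2 in each of 4 groups. Transfection lasted 36 h with 5 nM siRNA; the protocol states this for the control and TNFR1 siRNAs only. The siRNA sequences, and whether each was 1 siRNA or a pool, are not given in the sources used here, so the effect of losing a target and that of other transcripts an siRNA may bind cannot be told apart. The labels do not say that replicates were separate cultures. The p-values therefore measure only the spread between these samples, which may be technical.

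Between 10167 and 13072 probes were detected per array, and replicate arrays correlated at r between 0.980 and 0.992. The targeted genes were low in the cells given their siRNA. TNFRSF1A, which encodes TNFR1, was not detected in siTNFR1 cells and was at least 18.5-fold lower than in siCtrl cells in untreated MDA-MB-231 (limma, adjusted p = 3.42e-14) and at least 6.62-fold lower in untreated EVSA-T (adjusted p = 0.0104). Such a bound sets the mean of the brighter group against, on each array of the dimmer group, the lowest signal of any detected probe or the probe's own signal, whichever was higher. RELA was at least 3.57-fold lower in untreated siRELA cells (adjusted p = 2.97e-08), and IRF1 had a log2 change of -3.35 in untreated siIRF1 cells. BV6 was active in siCtrl cells: NFKB2, an NF-kappaB target and subunit gene, had a log2 change of 2.62 ± 0.18 in MDA-MB-231 (SE here and below), where 1 of 3 untreated arrays measured it, and was at least 7.31-fold higher with BV6 in EVSA-T (adjusted p = 2.98e-06), where 1 of 2 BV6-treated arrays and 0 of 2 untreated arrays measured it. Both lines were checked against defining markers: all 5 mesenchymal markers tested were lower in EVSA-T (VIM had a log2 difference of -6.13) and 5 of 6 luminal markers were higher, while KRT18 was lower. Leukocyte markers were nearly absent from both lines, with 1 of 5 (CD14) detected well enough to be tested.

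Cyclin B1 with its kinase CDK1 drives entry into mitosis, and the kinases PLK1 and AURKA shape the spindle. The spindle checkpoint proteins BUB3, BUB1B, MAD2L1 and TTK hold back CDC20 until every chromosome is attached, after which CDC20 turns on the anaphase-promoting complex and the cell destroys cyclin B1 and securin. The genes of these proteins are transcribed mainly in G2 and mitosis, through complexes of the MuvB core with B-MYB and FOXM1 on a promoter element called the cell cycle genes homology region (CHR) and through NF-Y on CCAAT boxes, and in resting cells or after p21 (CDKN1A) induction the DREAM complex represses them at the same elements.

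Promoter sequence was available in RefSeq (GRCh38.p14, 250 bases before to 50 bases after the start of each gene) for 37 of the 44 genes. The windows of 34 of these 37 genes (91.9%) held a CHR, searched as TTTGAA or TTTAAA on both strands, against 7605 genes (27.9%) of the 27305 with a window in the table. CCAAT, searched on both strands, was present in 30 genes (81.1%), against 10846 (39.7%) of all genes, and 26 (70.3%) held a CHR and a CCAAT in the same window, against 3065 (11.2%). The NF-kappaB consensus (kappa-B) was present in 3 (8.1%; CENPA, DLGAP5 and ECT2), against 3619 (13.3%) of all genes. A match describes letters in a window and is not a bound site. The sequences below are shown because the results turn on these 3 genes: CDC20 fell most with siRELA, CCNB1 fell with siRELA and carries both motifs, and CDC25B, the member that rose with BV6 in EVSA-T, has neither set of letters in the stretch shown, which is the first of its 4 windows; of the others 2 hold a CCAAT and 1 a TTTAAA, so that it is counted among the genes with either motif. Each is the 250 bases before the start on the plus strand, 5′ to 3′, at chr1:43358731-43358980 for CDC20, chr5:69166900-69167149 for CCNB1 and chr20:3786701-3786950 for CDC25B. Capitals mark CCAAT and the CHR letters (TTCAAA is TTTGAA read on the other strand), and the marked motifs do not overlap in these stretches.
CDC20: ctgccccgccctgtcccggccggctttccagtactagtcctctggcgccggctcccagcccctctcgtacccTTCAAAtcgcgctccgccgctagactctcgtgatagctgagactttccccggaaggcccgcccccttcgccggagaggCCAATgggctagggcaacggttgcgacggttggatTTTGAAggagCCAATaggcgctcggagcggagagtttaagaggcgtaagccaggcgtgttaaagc
CCNB1: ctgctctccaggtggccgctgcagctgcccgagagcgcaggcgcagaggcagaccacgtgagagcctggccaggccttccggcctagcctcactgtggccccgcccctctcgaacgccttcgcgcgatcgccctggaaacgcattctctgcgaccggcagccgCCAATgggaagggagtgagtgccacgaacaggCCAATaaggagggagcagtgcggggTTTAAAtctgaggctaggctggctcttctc
CDC25B: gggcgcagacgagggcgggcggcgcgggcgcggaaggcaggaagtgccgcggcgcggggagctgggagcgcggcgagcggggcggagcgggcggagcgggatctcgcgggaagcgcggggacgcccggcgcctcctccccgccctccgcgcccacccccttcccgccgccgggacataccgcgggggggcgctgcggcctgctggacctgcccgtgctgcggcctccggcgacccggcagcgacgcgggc

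Across the 20 groups the mitotic genes were at their lowest as a set in EVSA-T and at their highest in untreated, untransfected MDA-MB-231 at 9 and 15 h. For each array, the log2 difference of each gene from that gene's mean over all 48 arrays was taken and the median over the 44 genes was kept. This median deviation was highest in untreated, untransfected MDA-MB-231 cells at 15 h (0.37 and 0.47, mean 0.42) and lowest in BV6-treated siCtrl EVSA-T cells (-0.98 and -0.62, mean -0.80). Within the siRNA experiment in MDA-MB-231 it averaged -0.15 in siRELA, 0.22 in siIRF1, 0.02 in siTNFR1 and 0.12 in siCtrl cells without BV6, and -0.23, 0.11, -0.11 and -0.04 in the same order with BV6. The 3 siRELA arrays (-0.21, -0.16 and -0.10) all lay below the 3 siCtrl arrays (0.10, 0.20 and 0.07) without BV6, and siIRF1 (0.20, 0.26 and 0.18) overlapped siCtrl in part. The means of untransfected cells after 12 and 15 h of BV6 (0.17 and 0.15) lay below that of untreated siIRF1 cells. The 12 h arrays (0.10 and 0.24) overlapped the siIRF1 arrays, and the higher 15 h array (0.18) equalled the lowest of them. These are levels after joint normalization of all arrays and are described without a test. The siRNA arrays of MDA-MB-231 lay on slides 1 and 2, the untransfected ones on slides 3 and 4 and EVSA-T on slide 4. Transfected and untransfected MDA-MB-231 thus differed in slide too, as did siRNA-treated MDA-MB-231 and EVSA-T. Within the siRNA experiment, replicate 1 of every group lay on slide 1 and replicate 3 on slide 2. Replicate 2 lay on slide 1 for siCtrl and siRELA and on slide 2 for siIRF1 and siTNFR1. The siIRF1 and siTNFR1 comparisons with siCtrl therefore differ in part by slide. As these are bulk samples, fewer cells in mitosis and less RNA per cell cannot be told apart.

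**Figure D1:**
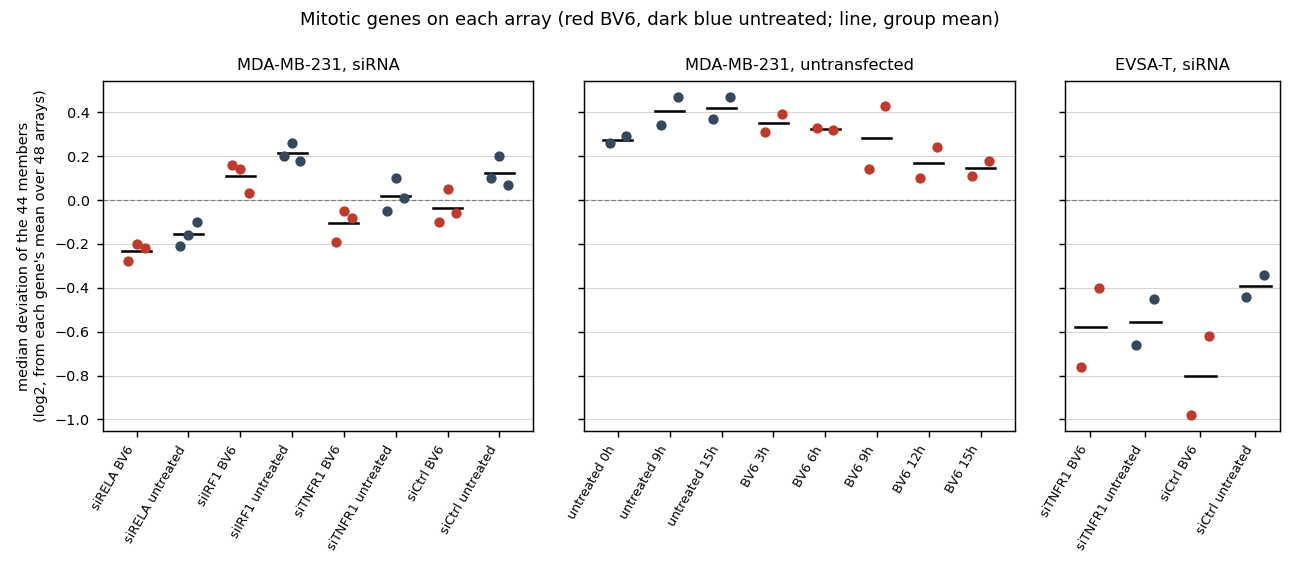
Median log2 deviation of the 44 mitotic genes from each gene's mean over 48 arrays, by group; points are arrays, lines are group means, and the panels are siRNA-treated MDA-MB-231, untransfected MDA-MB-231 by hour, and EVSA-T. The group means run between -0.80 in BV6-treated siCtrl EVSA-T and 0.42 in untreated MDA-MB-231 at 15 h, with siRELA below siCtrl and siIRF1 above it in untreated MDA-MB-231.

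Single genes differed in which group held their extreme. In 23 of the 44 genes the lowest group was BV6-treated siCtrl EVSA-T, in 6 BV6-treated siRELA MDA-MB-231 and in 3 untreated siRELA MDA-MB-231. The highest group was untreated siIRF1 MDA-MB-231 in 9 genes and untreated MDA-MB-231 at 9 h or at 15 h in 7 each. The difference between a gene's highest and lowest group ran between 0.92 for ECT2, a guanine exchange factor for RhoA in cytokinesis, and 2.95 for CDC20, which was lowest in untreated siRELA cells and highest in untransfected cells after 9 h of BV6.

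Among the siRNA comparisons in untreated MDA-MB-231, that of siRELA had the most mitotic genes called, 12 against 9 for siIRF1 (with BV6, 5 against 9). Over all genes tested, 21.1% and 21.8% were called without BV6 and 19.2% and 22.2% with it. These counts alone therefore do not set the members apart from all genes. RELA encodes p65, the transactivating subunit of canonical NF-kappaB. In untreated MDA-MB-231, 11 of the 44 mitotic genes fell in siRELA against siCtrl cells and 1 rose (limma, adjusted p below 0.05 over 9561 genes), where 9.97% of all genes tested fell and 11.1% rose, 21.1% in all. The median log2 change of the 44 was -0.25, against 0.02 over all genes tested, and 40 of 44 changes were negative. At an unadjusted p below 0.05, 18 were lower and 1 was higher, against 1439 and 1694 of all 9561 genes tested.

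CDC20 changed most. It read 10.56, 10.30 and 10.23 on the untreated siRELA arrays, against 12.90, 13.15 and 12.74 on the untreated siCtrl arrays (log2 intensity). With BV6 it read 10.46, 10.41 and 10.37 in siRELA and 12.83, 12.89 and 13.06 in siCtrl cells. Every siRELA array lay more than 2 log2 units below every siCtrl array of the same treatment. The log2 change was -2.57 ± 0.13 without BV6 (limma, adjusted p = 8.99e-13) and -2.51 ± 0.13 with BV6 (adjusted p = 9.5e-13). It was called under all 16 alternative settings, at -2.66 to -2.46 without BV6 and -2.69 to -2.41 with it, and within slides 1 and 2 it was -2.59 and -2.51 without BV6. Only 1 probe of CDC20 was measured.

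RACGAP1, which encodes the GTPase-activating protein of the centralspindlin complex at the midzone, was the other member called in both treatments under all 16 settings. It read 9.24, 9.64 and 9.17 in untreated siRELA cells, against 10.18, 10.40 and 10.12 in untreated siCtrl cells, and with BV6 it read 9.15, 9.29 and 9.04 in siRELA cells, against 10.17, 10.17 and 10.28 in siCtrl cells. All siRELA arrays lay below all siCtrl arrays. The log2 change was -0.88 ± 0.14 (limma, adjusted p = 5.21e-05) without BV6 and -1.05 ± 0.14 (adjusted p = 5.18e-06) with it, and its other probe had changes of -1.25 and -1.06. Within slides 1 and 2 it was -0.85 and -0.95 without BV6.

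**Figure D2:**
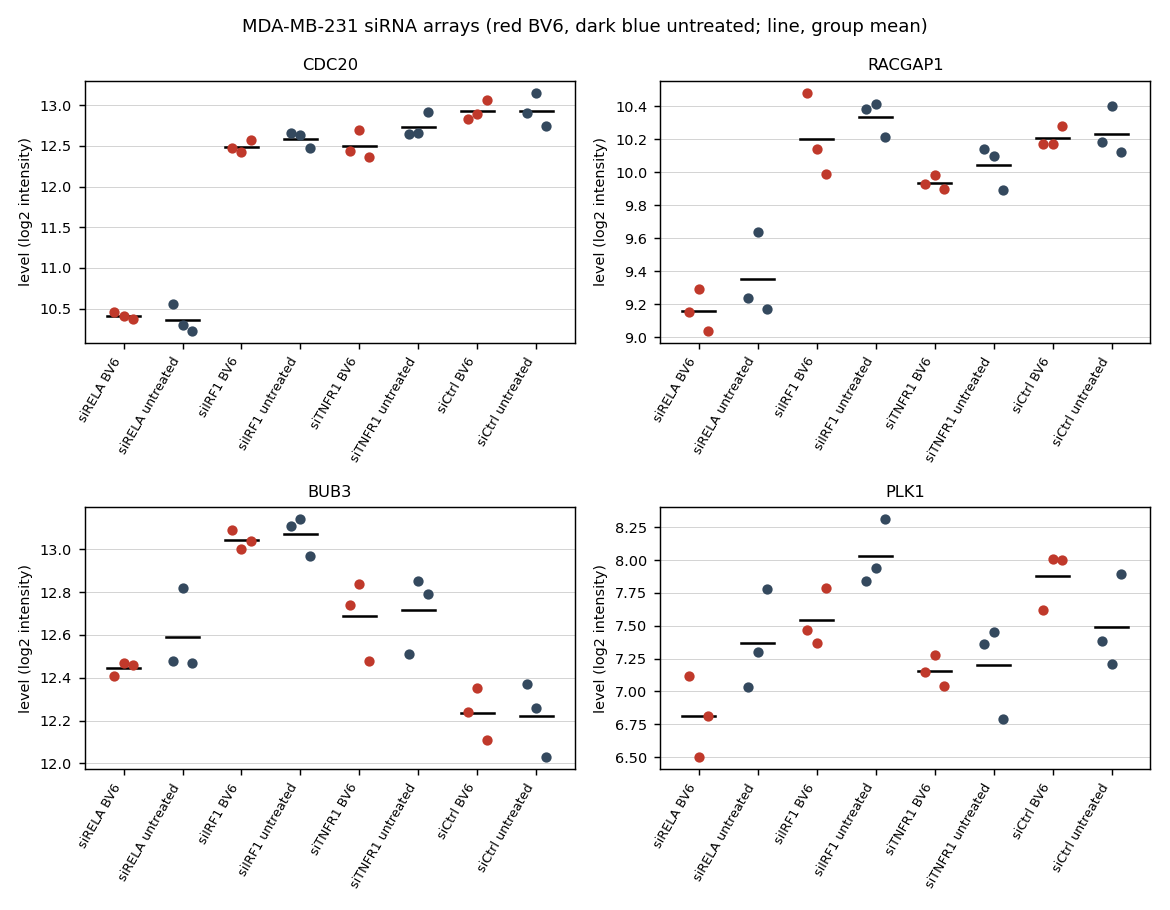
Log2 intensity of CDC20, RACGAP1, BUB3 and PLK1 on each array of the siRNA experiment in MDA-MB-231, by siRNA, with BV6-treated and untreated arrays side by side and lines at the group means. CDC20 lies between 10.23 and 10.56 on the siRELA arrays and above 12 on the others, and BUB3 is above 12.9 on every siIRF1 array.

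The remaining members called lower without BV6 came from several roles. Among genes of the entry switch, 3 of 9 fell. CCNB1 (cyclin B1) read 9.38, 9.40 and 9.69 in siRELA cells, against 10.12, 9.88 and 10.08 in siCtrl cells, a log2 change of -0.54 ± 0.15 (limma, adjusted p = 0.0142). CCNA2 (cyclin A2) read 10.74, 11.03 and 11.12 in siRELA cells, against 11.28, 11.57 and 11.55 in siCtrl cells, a change of -0.50 ± 0.14 (adjusted p = 0.0109). CKS1B, a small CDK-binding subunit, read 12.17, 12.33 and 12.46 in siRELA cells, against 12.58, 12.93 and 12.89 in siCtrl cells, a change of -0.48 ± 0.14 (adjusted p = 0.0154). For all 3 genes no siRELA array reached the lowest siCtrl array. CDK1 itself read 11.09, 11.15 and 11.12 in siRELA cells, against 11.20, 11.10 and 11.58 in siCtrl cells, and these overlapped.

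Of the 8 kinases and spindle checkpoint genes, 3 fell and 1 rose with siRELA. AURKA, the centrosomal kinase, read 11.58, 11.62 and 11.69 in siRELA cells, against 12.11, 12.13 and 11.78 in siCtrl cells, a log2 change of -0.38 ± 0.12 (limma, adjusted p = 0.0282). AURKB, the kinase of the chromosomal passenger complex, read 10.58, 10.47 and 10.62 in siRELA cells, against 10.76, 11.12 and 11.08 in siCtrl cells, a change of -0.43 ± 0.15 (adjusted p = 0.0399). MAD2L1, the checkpoint protein that binds CDC20, read 10.25, 10.41 and 10.32 in siRELA cells, against 10.74, 10.88 and 10.71 in siCtrl cells, a change of -0.45 ± 0.15 (adjusted p = 0.0287). The arrays of both groups were apart for each of these genes. BUB3, another checkpoint protein, was the gene that rose: it read 12.48, 12.82 and 12.47 in siRELA cells, against 12.37, 12.26 and 12.03 in siCtrl cells, a change of 0.37 ± 0.13 (adjusted p = 0.0462).

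PTTG1, which encodes securin, the inhibitor of separase, read 12.16, 12.24 and 12.47 in untreated siRELA cells, against 12.80, 12.82 and 13.08 in untreated siCtrl cells. Its log2 change was -0.61 ± 0.14 (limma, adjusted p = 0.00214), its other probe had -0.74, and no siRELA array reached the siCtrl arrays. HMMR, a spindle and hyaluronan-binding protein gene, read 7.67, 7.67 and 7.26 in siRELA cells, against 7.87, 8.38 and 8.24 in siCtrl cells, a change of -0.63 ± 0.16 (adjusted p = 0.00737). KIF11, the kinesin that pushes spindle poles apart, read 8.91, 9.39 and 8.92 in siRELA cells, against 9.73, 9.78 and 9.26 in siCtrl cells, a change of -0.51 ± 0.16 (adjusted p = 0.0241). KIF11 was the called gene whose groups overlapped. Second probes had -0.66 for HMMR, -0.28 for KIF11, -0.42 for CKS1B, -0.58 for MAD2L1 and -0.26 for AURKA. The other probes of BUB3, the gene that rose, had 0.37 and 0.15. Of these further probes only those of HMMR and CKS1B passed the threshold. None of the 5 centromere and kinetochore genes passed the test, with a median change of -0.34, and neither did TOP2A and MKI67, the genes of topoisomerase II alpha and the Ki-67 antigen. TOP2A read 12.06, 12.12 and 11.64 in siRELA cells, against 11.91, 12.24 and 11.94 in siCtrl cells, which overlapped.

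The count of called members depended on single arrays. It ran between 4 (without siRELA untreated replicate 1) and 11 when arrays were left out in turn, and was 6 without siCtrl untreated replicate 2. PTTG1 was called in all 6 of these fits, as were CDC20 and RACGAP1, and HMMR and CCNA2 in 5.

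With BV6, 5 of 44 members fell in siRELA against siCtrl cells and 0 rose, where 9.42% of all genes tested fell and 9.79% rose, 19.2% in all. At an unadjusted p below 0.05, 13 members were lower, against 1393 of all 9561 genes tested. The median change of the 44 was -0.19 and 36 changes were negative. Beside CDC20 and RACGAP1, the called genes were PLK1, CDC25C and UBE2C. PLK1, the polo-like kinase, read 7.12, 6.5 and 6.81 in BV6-treated siRELA cells, against 7.62, 8.01 and 8.0 in BV6-treated siCtrl cells, a log2 change of -1.07 ± 0.21 (limma, adjusted p = 0.000724). All siRELA arrays were lower, at a signal so dim that PLK1 was detected on only 1 of the 3 untreated siCtrl arrays (7.38, 7.21 and 7.89). In untreated siRELA cells PLK1 read 7.03, 7.30 and 7.78. CDC25C, a phosphatase that activates CDK1, read 7.20, 6.94 and 6.67 in siRELA cells, against 7.41, 7.55 and 7.48 in siCtrl cells, a change of -0.55 ± 0.14 (adjusted p = 0.00821). Its other probes differed in sign, at -0.69 and 0.21. UBE2C, the ubiquitin-conjugating enzyme of the anaphase-promoting complex, read 12.67, 12.43 and 12.67 in siRELA cells, against 12.99, 12.93 and 12.88 in siCtrl cells, a change of -0.34 ± 0.11 (adjusted p = 0.0361). Both groups were apart for these genes. The same siRNA replicate numbers paired the BV6-treated arrays, and with the replicate as a block 9 members were called lower, adding PRC1, CCNA2, DLGAP5 and TPX2. The shares over all genes given above are from the fit without that block. None of the 44 interaction terms of BV6 with siRELA passed the test (limma, where 0.0418% of all genes were called). At an unadjusted p below 0.05 there were 1 higher and 1 lower, against 223 and 279 of all 9561 genes tested. PLK1 had an interaction of -0.94 ± 0.30 (limma, adjusted p = 0.751), so the members called in only 1 treatment are not shown to differ between treatments.

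Other mitosis genes outside the 44 and their regulators were read in the same comparison. Of 64 further mitosis genes tested, 19 fell and 3 rose with siRELA without BV6, with a median of -0.21, and 19 fell and 2 rose with BV6. Over all genes tested, 9.97% fell and 11.1% rose without BV6, and 9.42% fell and 9.79% rose with it. ZWINT, a kinetochore protein gene, had a log2 change of -1.95 ± 0.18 (limma, adjusted p = 1.96e-08) without BV6 and -1.88 with BV6. SKA1, a kinetochore-microtubule protein gene, was not detected in siRELA cells and was at least 3.75-fold lower without BV6 (adjusted p = 7.53e-07) and at least 3.51-fold lower with it (adjusted p = 1.67e-06). CDC23, a subunit of the anaphase-promoting complex, had -1.50 and -1.67. INCENP, the scaffold of the chromosomal passenger complex, had -1.49 and -1.48. STAG2, a cohesin subunit, rose by 1.05 ± 0.16 and 1.04. Among 20 regulators, the called genes included FOXM1, the forkhead factor of the late cell cycle, which fell, and RBL2, a pocket protein of the DREAM complex, which rose. FOXM1 read 7.78, 7.85 and 8.28 in siRELA cells, against 8.30, 8.80 and 8.61 in siCtrl cells without BV6, with a change of -0.60 ± 0.14 (adjusted p = 0.00445), and with BV6 it read 7.95, 7.66 and 7.96 in siRELA cells, against 8.27, 8.48 and 8.53 in siCtrl cells, with -0.56 ± 0.14 (adjusted p = 0.00672). The FOXM1 arrays of the groups were apart in both treatments. RBL2 had changes of 1.16 ± 0.21 and 0.99. RBBP4 was at least 1.88-fold higher without BV6 (limma, adjusted p = 0.000411), detected on 2 siRELA arrays and on no siCtrl array. With BV6 its mean was 7.36 in siRELA and 6.85 in siCtrl cells (limma, adjusted p = 0.0388), and no siRELA array detected it. Of 28 G1/S genes 3 rose and 6 fell without BV6, with CDC25A at -1.37 ± 0.15 and CCNE1 at 1.09 ± 0.15. The CDK inhibitor gene CDKN1A (p21) rose by 0.65 ± 0.16 without BV6 and had -0.03 ± 0.16 with it. CDKN1A also read higher in untreated siTNFR1 cells (11.67, 11.77 and 11.47) than in untreated siCtrl cells (11.22, 11.03 and 10.74). With BV6 it read 12.47, 12.24 and 12.08 in siTNFR1 cells, against 11.87, 11.88 and 11.71 in siCtrl cells. With siTNFR1, 2 of 44 members were called in each treatment. Whether CDKN1A had a part in the members' changes was not tested.

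With IRF1 siRNA more mitotic genes rose than fell. IRF1 is an interferon-regulated transcription factor. In untreated MDA-MB-231, 7 of the 44 mitotic genes rose in siIRF1 against siCtrl cells and 2 fell, where 9.37% of all genes tested rose and 12.5% fell, 21.8% in all. The median change was 0.10, against 0.00 over all genes, and 30 of 44 changes were positive. With BV6, 8 rose and 1 fell, where 9.37% rose and 12.8% fell, 22.2% in all, with a median of 0.20 and 32 positive changes. The siRELA, siIRF1 and siTNFR1 comparisons share the siCtrl arrays.

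BUB3 was the member called most firmly. It read 13.11, 13.14 and 12.97 in untreated siIRF1 cells, against 12.37, 12.26 and 12.03 in untreated siCtrl cells, and with BV6 13.09, 13 and 13.04 in siIRF1 cells, against 12.24, 12.35 and 12.11 in siCtrl cells. Every siIRF1 array lay above every siCtrl array. The log2 change was 0.85 ± 0.13 (limma, adjusted p = 3.33e-05) without BV6 and 0.81 ± 0.13 (adjusted p = 5.56e-05) with BV6, and its 2 other probes had 0.91 and 1.31 without BV6 and 1.10 and 1.43 with BV6. It was called in all leave-one-out fits. NUSAP1, a spindle microtubule-bundling protein gene, read 11.73, 11.65 and 11.45 in untreated siIRF1 cells, against 11.06, 11.34 and 11.07 in siCtrl cells, and with BV6 11.43, 11.50 and 11.47 in siIRF1 cells, against 10.89, 10.87 and 10.83 in siCtrl cells. Its groups were also apart, and the change was 0.46 ± 0.13 (adjusted p = 0.0104) and 0.61 ± 0.13 (adjusted p = 0.000847).

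Kinesins made up much of the rest. KIF23, the kinesin of centralspindlin, read 10.06, 9.98 and 10.44 in untreated siIRF1 cells, against 9.60, 9.81 and 9.49 in siCtrl cells, and with BV6 9.96, 10.27 and 10.02 in siIRF1 cells, against 9.36, 9.83 and 9.34 in siCtrl cells. Its groups did not overlap, and the changes were 0.53 ± 0.15 (limma, adjusted p = 0.0157) and 0.58 ± 0.15 (adjusted p = 0.008). KIF2C, a microtubule-depolymerising kinesin, read 10.33, 10.24 and 10.47 in untreated siIRF1 cells, against 9.54, 10.14 and 9.77 in siCtrl cells, a change of 0.53 ± 0.15 (adjusted p = 0.0113) with groups apart. Among the 7 kinesins 4 rose with BV6 (KIF11, KIF4A, KIF14 and KIF23), with a median of 0.44 over the 7. KIF11 read 9.68, 9.85 and 9.48 in BV6-treated siIRF1 cells, against 9.20, 9.26 and 8.97 in BV6-treated siCtrl cells, a change of 0.52 ± 0.16 (adjusted p = 0.0206; its other probe had 0.22). KIF4A, a chromosome-arm kinesin, read 8.66, 8.91 and 8.48 in siIRF1 cells, against 8.31, 8.12 and 8.21 in siCtrl cells, a change of 0.47 ± 0.14 (adjusted p = 0.0175). KIF14 read 9.17, 8.94 and 8.88 in siIRF1 cells, against 8.54, 8.31 and 8.83 in siCtrl cells, a change of 0.44 ± 0.16 (adjusted p = 0.0476). The groups of these 3 kinesins did not overlap.

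TPX2, the activator of AURKA on the spindle, rose in both treatments, at 0.44 ± 0.15 (limma, adjusted p = 0.0417) without BV6 and 0.46 ± 0.15 (adjusted p = 0.0311) with it. It read 10.75, 10.94 and 10.78 in untreated siIRF1 cells, against 10.31, 10.65 and 10.20 in siCtrl cells, and with BV6 10.92, 10.84 and 10.49 in siIRF1 cells, against 10.13, 10.24 and 10.51 in siCtrl cells, where the groups overlapped. CDC25C rose too, by 0.48 ± 0.14 (adjusted p = 0.0174) and 0.42 ± 0.14 (adjusted p = 0.0368). It read 8.26, 8.29 and 8.50 in siIRF1 cells, against 7.75, 8.03 and 7.82 in siCtrl cells without BV6, and 7.91, 8.04 and 7.76 in siIRF1 cells, against 7.41, 7.55 and 7.48 in siCtrl cells with BV6. The CDC25C groups were apart in both treatments, though with BV6 its other probes had -0.09 and 1.23. CDCA8, a subunit of the chromosomal passenger complex, read 10.62, 10.57 and 10.41 in untreated siIRF1 cells, against 9.82, 10.26 and 10.18 in siCtrl cells, a change of 0.45 ± 0.13 (adjusted p = 0.013), again with the groups apart.

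Of the members that fell, CENPA, the centromeric histone H3 variant, read 9.19, 9.10 and 9.12 in untreated siIRF1 cells, against 9.57, 9.54 and 9.55 in siCtrl cells, with a change of -0.42 ± 0.14 (limma, adjusted p = 0.0331). CDK1 read 10.78, 11.06 and 10.79 in untreated siIRF1 cells, against 11.20, 11.10 and 11.58 in siCtrl cells, a change of -0.41 ± 0.14 (adjusted p = 0.0316). CDC20 was the member that fell with BV6, reading 12.47, 12.42 and 12.57 in siIRF1 cells, against 12.83, 12.89 and 13.06 in siCtrl cells, a change of -0.44 ± 0.13 (adjusted p = 0.0143). All siIRF1 arrays lay below the siCtrl arrays in these 3 genes. The other probes had -0.24 for CENPA and -0.27 for CDK1, both short of the threshold. The counts again moved with single arrays: without BV6 they ran between 3 (without siIRF1 untreated replicate 3) and 9 and were 4 without siCtrl untreated replicate 1 or siIRF1 untreated replicate 1, and with BV6 between 2 (without siIRF1 BV6 replicate 2) and 8, and 5 without siIRF1 BV6 replicate 1. The interaction of BV6 with siIRF1 was called for 0 of 44 members (limma, 0.178% of all genes). At an unadjusted p below 0.05, 1 was higher and 1 lower, against 186 and 248 of all 9561 genes tested.

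Of 64 other mitosis genes tested, 9 rose and 3 fell with siIRF1 without BV6 and 12 rose and 2 fell with BV6, where 9.37% of all genes rose in each treatment and 12.5% and 12.8% fell. The condensin and cohesin genes took part with 4 of 14 and 5 of 14 rising, among them STAG2 at 1.20 ± 0.16 and 1.34 ± 0.16. SPC24, a kinetochore protein of the NDC80 complex, had changes of 0.75 and 0.67, and ANAPC4, a subunit of the anaphase-promoting complex, fell at -0.54 and -0.44. NFYA, the DNA-contacting subunit of NF-Y, rose by 0.92 ± 0.16 (limma, adjusted p = 0.000186) and 1.56 ± 0.16 (adjusted p = 1.51e-07), and FOXM1 had 0.25 ± 0.14 (adjusted p = 0.252) without BV6 and rose by 0.47 ± 0.14 (adjusted p = 0.0215) with it. Markers of epithelial identity moved too: 3 of 6 luminal markers fell without BV6 and 2 fell and 1 rose with it, with SPDEF at -2.44 without BV6 and at least 4.5-fold lower with it (adjusted p = 2.48e-07) and KRT19 at -1.12 and -1.17, and 1 of 5 mesenchymal markers fell in each. Their part in the members' changes was not tested.

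TNFR1 siRNA moved few members in MDA-MB-231. Without BV6, BUB3 rose and CDC25C fell (2 of 44, where 2.4% of all genes rose and 0.931% fell, 3.33% in all), and with BV6, BUB3 rose and PLK1 fell (2 of 44, with 2.63% and 2.35%, 4.98% in all). BUB3 read 12.51, 12.85 and 12.79 in untreated siTNFR1 cells, against 12.37, 12.26 and 12.03 in siCtrl cells, a log2 change of 0.49 ± 0.13 (limma, adjusted p = 0.0333), and with BV6 12.74, 12.84 and 12.48 in siTNFR1 cells, against 12.24, 12.35 and 12.11 in siCtrl cells, a change of 0.45 ± 0.13 (adjusted p = 0.0428). No siTNFR1 array was below a siCtrl array of its treatment. Without BV6, BUB3 rose with siTNFR1, siRELA and siIRF1, comparisons that share the siCtrl arrays, and with BV6 its change with siRELA was 0.21 ± 0.13 (adjusted p = 0.287). CDC25C read 7.26, 7.50 and 7.30 in untreated siTNFR1 cells, against 7.75, 8.03 and 7.82 in siCtrl cells (-0.51 ± 0.14, adjusted p = 0.0492), and PLK1 read 7.15, 7.28 and 7.04 in BV6-treated siTNFR1 cells, against 7.62, 8.01 and 8.0 in BV6-treated siCtrl cells (-0.72 ± 0.21, adjusted p = 0.0489), both without overlap. These calls were fragile: CDC25C was lost in all 6 leave-one-out fits, BUB3 without BV6 in 4, and BUB3 with BV6 and PLK1 in 5 each. The medians were -0.10 without BV6 and -0.07 with BV6, and the interaction of BV6 with siTNFR1 was called for 0 of 44 (limma, 0.0105% of all genes). At an unadjusted p below 0.05, 2 were higher and 1 lower, against 284 and 322 of all 9561 genes tested.

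**Figure D3:**
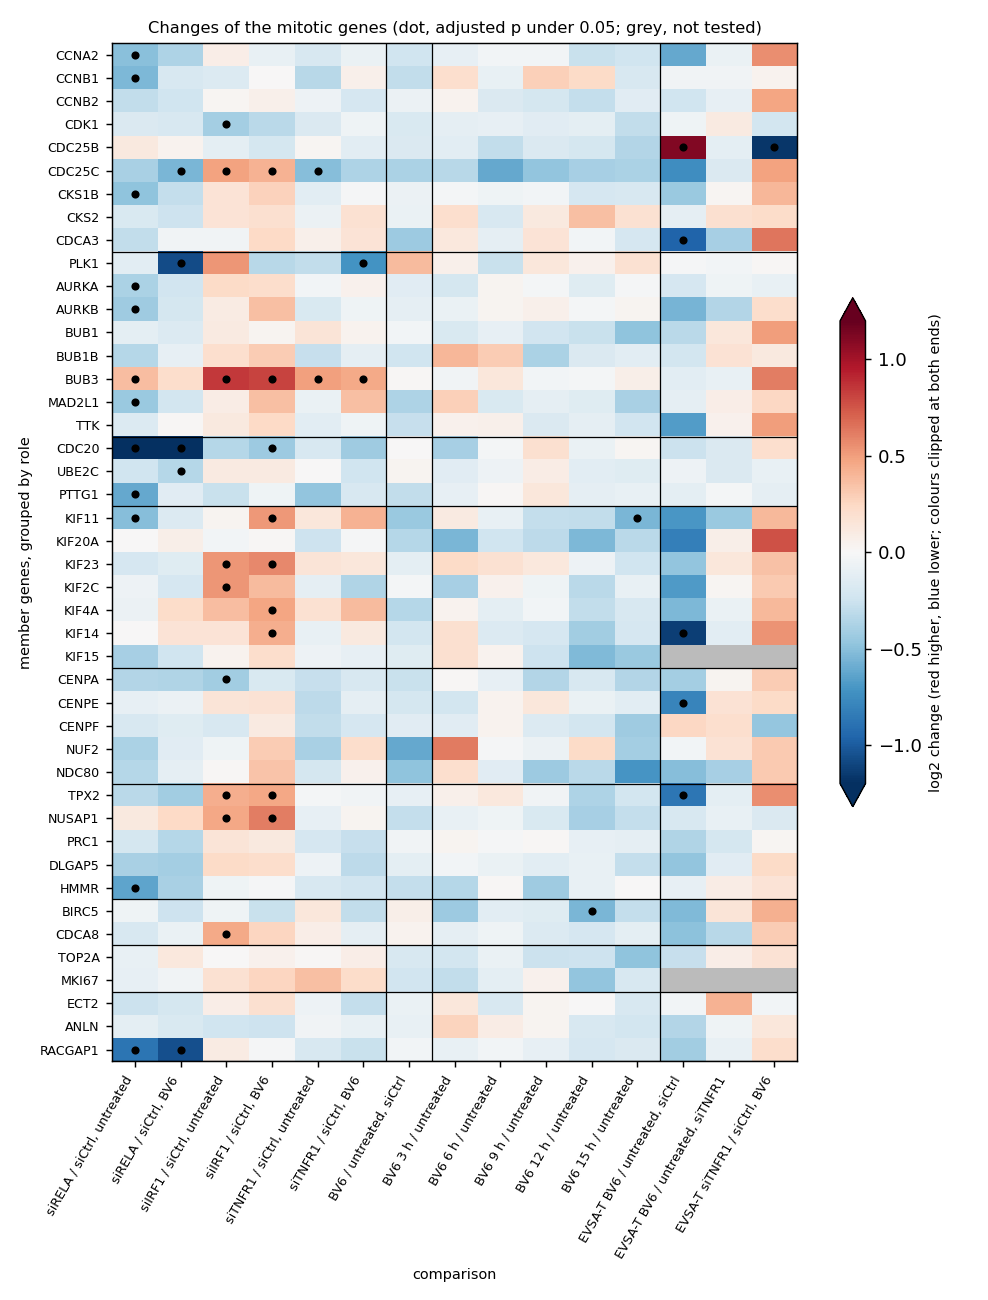
Log2 change of the 44 mitotic genes (down the page, by role) in 15 comparisons (across); colours end at ±1.2, a dot marks limma adjusted p below 0.05 and grey marks a gene not tested. The siRELA columns hold most of the lower calls in MDA-MB-231, with CDC20 at -2.57 and -2.51, the siIRF1 columns most of the higher calls, and the EVSA-T BV6 column its own set with CDC25B at 1.11.

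BV6 itself moved no mitotic gene past the test after 9 h in the siRNA arrays. With limma, 0 of 44 members were called in siRELA, siIRF1, siTNFR1 or siCtrl cells, where 0.303%, 0.847%, 1.33% and 2.54% of all genes tested were called in the same order. At an unadjusted p below 0.05, 3, 4, 5 and 10 members were lower and 0 were higher. Of all 9561 genes tested, 263, 440, 585 and 696 were lower and 300, 391, 517 and 704 higher at that threshold. Changes were negative in 34, 36, 39 and 39 of 44, with medians of -0.11, -0.13, -0.14 and -0.16, against -0.01 to -0.02 over all genes. In siCtrl cells the members furthest from 0 were NUF2 and NDC80, subunits of the kinetochore's NDC80 complex, and KIF11. NUF2 read 8.28, 8.45 and 8.39 in BV6-treated siCtrl cells, against 9.01, 8.75 and 9.18 in untreated ones, with the groups apart and a log2 change of -0.61 ± 0.20 (limma, adjusted p = 0.113). With the replicate number as a block, which pairs these arrays, NUF2 was the 1 member called (limma, adjusted p = 0.048). The shares over all genes given above are from the fit without that block. NDC80 had -0.48 ± 0.17 (adjusted p = 0.14). KIF11 read 9.20, 9.26 and 8.97 in BV6-treated siCtrl cells, against 9.73, 9.78 and 9.26 in untreated ones, with 1 value shared, and had -0.45 ± 0.16 (adjusted p = 0.167). CCNB1 had -0.30 ± 0.15, CDK1 -0.18 ± 0.14, AURKA -0.14 ± 0.12, TOP2A -0.19 ± 0.16 and PLK1 0.38 ± 0.21, all short of the threshold. MKI67 was at the edge of detection, at 6.56, 6.84 and 6.11 with BV6, where it was detected on 0 of 3 arrays, against 6.52, 7.02 and 6.66 in untreated siCtrl cells. In the same arrays 2 of the 12 tested genes of a list of CDK inhibitors and p53 targets rose and 0 fell. Of all 9561 genes tested there, 166 rose and 77 fell. The 2 listed genes were CDKN1A at 0.82 ± 0.16 (limma, adjusted p = 0.00253) and GADD45A at 1.30 ± 0.12 (adjusted p = 8.03e-08).

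In the kinetic of untransfected MDA-MB-231 few mitotic genes passed the test, and their median change was lowest at the later hours. The arrays of each BV6 time were set against the average of all untreated groups, so that these comparisons share their untreated arrays. The untreated arrays, the 3 h arrays and replicate 1 of every later BV6 time lay on slide 3. Replicate 2 at 6, 9, 12 and 15 h lay on slide 4, which held no untreated MDA-MB-231 array. For those arrays BV6 and slide cannot be told apart. On slide 3 alone, with 1 BV6 array per group, the median was -0.20 at 9 h and -0.28 at 12 h. The median change of the 44 was -0.03 at 3 h, -0.05 at 6 h, -0.08 at 9 h, -0.19 at 12 h and -0.20 at 15 h, against -0.02, -0.02, -0.03, -0.05 and -0.05 over all genes. Without BV6 9 h replicate 1 the median at 9 h was 0.02. Negative changes were found in 24, 30, 30, 39 and 38 of 44. Called members numbered 0, 0, 0, 1 and 1 (limma), where 0.39%, 0.544%, 1.24%, 4.23% and 7.03% of all genes were called. At an unadjusted p below 0.05, 2, 1, 4, 7 and 9 were lower and 1, 0, 0, 1 and 0 higher. Of all 9742 genes tested, 616, 363, 586, 1038 and 1266 were lower and 458, 390, 507, 831 and 975 higher at that threshold.

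KIF11 was the member called at 15 h. It read 9.72 and 9.81, 9.88 and 10.20, and 9.83 and 9.84 in untreated cells at 0, 9 and 15 h, and 9.88 and 10.10, 9.74 and 9.84, 9.39 and 9.80, 9.41 and 9.74, and 9.21 and 9.44 after 3, 6, 9, 12 and 15 h of BV6. Both 15 h arrays were below every untreated array. The log2 changes were 0.11, -0.09, -0.29, -0.30 and -0.55 ± 0.15, with an adjusted p of 0.0416 at 15 h (limma), and its other probe had -0.28 at 15 h. The call was kept in only 1 of 8 leave-one-out fits, that without untreated 9 h replicate 1 (range of the change -0.67 to -0.44).

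BIRC5, the gene of survivin, a subunit of the chromosomal passenger complex and itself a member of the IAP family, was called at 12 h. It read 11.02 and 11.26, 10.80 and 10.78, and 10.96 and 11.08 in untreated cells at 0, 9 and 15 h, and 10.48 and 10.60, 10.90 and 10.81, 10.71 and 10.96, 10.26 and 10.61, and 10.72 and 10.68 after 3, 6, 9, 12 and 15 h of BV6. The arrays at 3, 12 and 15 h lay below all untreated ones. The changes were -0.44, -0.13, -0.15, -0.55 ± 0.14 and -0.29, with an adjusted p of 0.0347 at 12 h (limma), and its other probe had 0.01 at 12 h. The call was lost in 6 of 8 leave-one-out fits: without either untreated 9 h array, either untreated 15 h array, untreated 0 h replicate 2 or BV6 12 h replicate 1.

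Other members were close behind at 15 h. TOP2A read 11.61 and 11.72 after 15 h of BV6, against 12.33 and 12.11, 12.07 and 12.28, and 12.02 and 12.08 in untreated cells at 0, 9 and 15 h, a change of -0.48 ± 0.16 (limma, adjusted p = 0.0756). BUB1, a checkpoint kinase at the kinetochore, read 9.66 and 9.87 after 15 h of BV6, against 10.31 and 10.00, 10.24 and 10.41, and 10.19 and 10.34 in untreated cells, a change of -0.48 ± 0.15 (adjusted p = 0.0732). The 15 h arrays of both genes lay below all untreated ones. With the replicate number as a block, which pairs these arrays, KIF11, TOP2A and BUB1 were called at 15 h and BIRC5 and KIF15 at 12 h. The shares over all genes given for these hours are from the fit without that block. Against the untreated arrays of the same hour 0 members were called at 15 h, and within slide 3 alone 0 at 12 h and 0 at 15 h.

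**Figure D4:**
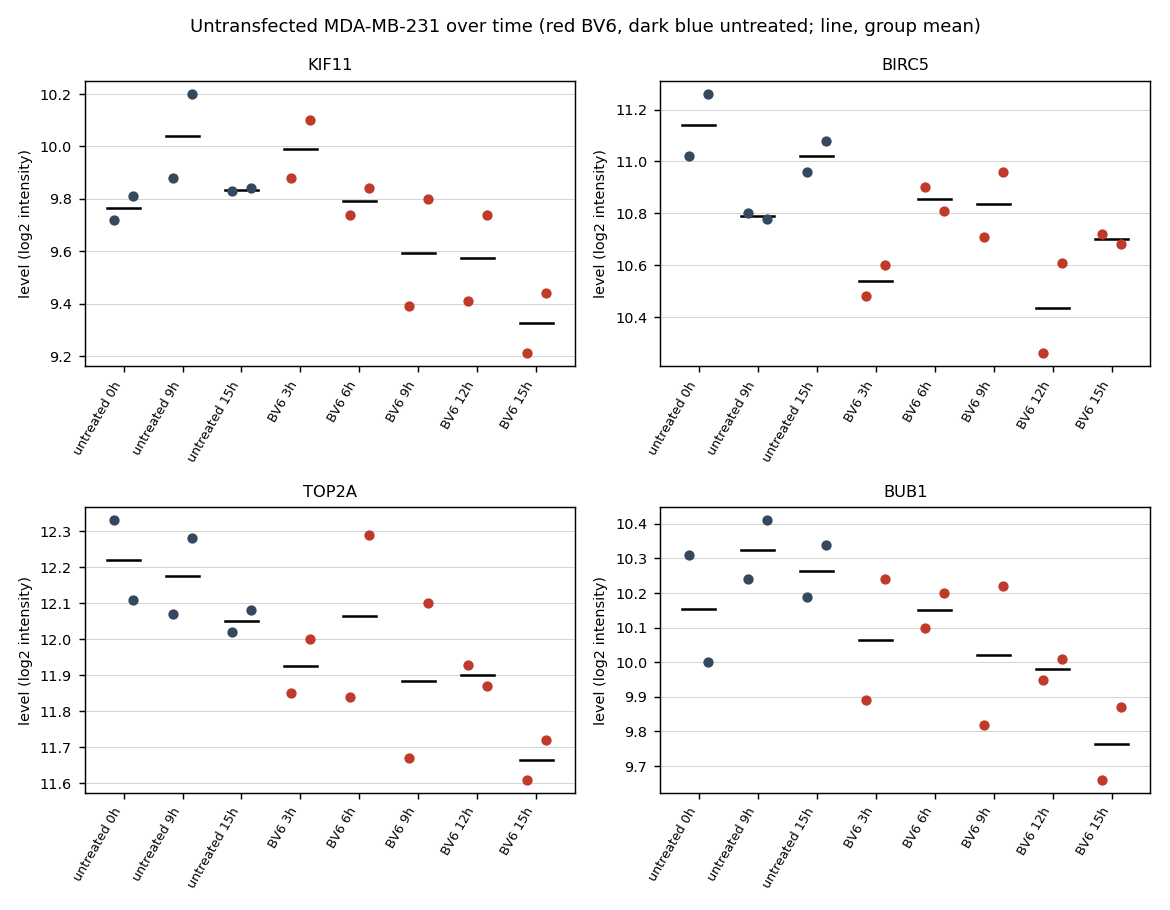
Log2 intensity of KIF11, BIRC5, TOP2A and BUB1 in untransfected MDA-MB-231 by hour. Points are single arrays of BV6-treated and untreated cells and short lines lie at the group means. Both KIF11 arrays at 15 h of BV6 (9.21 and 9.44) lie below every untreated array, and BIRC5 is lowest at 12 h (10.26 and 10.61).

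Genes of the entry switch and the mitotic kinases did not pass the test at any time. CCNB1 read 10.14 and 10.47, 10.23 and 9.80, 10.26 and 10.54, 10.60 and 10.08, and 9.70 and 10.14 after 3, 6, 9, 12 and 15 h of BV6, against 9.96 and 9.81, 10.37 and 10.26, and 10.07 and 10.19 at 0, 9 and 15 h without, which overlapped at every time. CDK1 read 11.22 and 10.96 after 15 h of BV6, against 11.36 and 11.44 in untreated cells at 15 h, a change of -0.30 ± 0.15 from all untreated groups (limma, adjusted p = 0.251), and PLK1 had 0.18 ± 0.24 and AURKA -0.01 ± 0.16 at 15 h. Between 15 h and 3 h of BV6, 0 of 44 were called (limma, 4.27% of all genes), with KIF11 at -0.67 ± 0.19 (adjusted p = 0.0613). At an unadjusted p below 0.05, 8 members were lower, against 1000 of all 9742 genes tested. The 3 h array of replicate 2 stood apart from replicate 1 in kinetochore genes: NUF2 read 9.81 on it and 8.04 on replicate 1, NDC80 10.02 and 8.81, and MAD2L1 11.45 and 10.87. The NUF2 change at 3 h was 0.62 with that array and -0.26 without it. Untreated cells at 15 h against 0 h had 0 members called (limma, 0% of all genes), with a median of 0.13. At an unadjusted p below 0.05, 2 were higher and 0 lower, against 131 and 151 of all 9742 genes tested.

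Outside the 44, 4 of the 12 tested genes of the list of CDK inhibitors and p53 targets rose at 15 h and 1 fell. Of all 9742 genes tested, 382 rose and 303 fell at that hour. CDKN1A rose at the later hours (0.90, 0.73 and 0.84 at 9, 12 and 15 h), GADD45A at every time (1.75, 1.06, 1.06, 1.97 and 2.13) and GADD45B at 12 and 15 h (1.64 and 2.12). Of 67 other mitosis genes tested, 2 fell at 15 h, which is near the share over all genes. They were the centromere protein genes CENPI, which was not detected at that hour, and CENPU (-0.61). The replication genes POLA1 (-0.69) and MCM6 (-0.51) fell as well.

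In EVSA-T, 5 of the 42 mitotic genes tested were called with BV6 in siCtrl cells, close to the share called over all genes. CDC25B rose and KIF14, CDCA3, TPX2 and CENPE fell, where 6.84% of all genes tested rose and 4.6% fell, 11.4% in all (limma). With the replicate as a block 11 were called (1 higher and 10 lower), adding CCNA2, BIRC5, KIF20A, KIF11, TTK and CDC25C. This comparison had only 2 replicate pairs, too few for the pairing rule given below. The shares over all genes given here are from the fit without that block. Without the block the median change was -0.36, against -0.10 over all genes, and 40 of 42 changes were negative. At an unadjusted p below 0.05, 14 were lower and 1 higher, against 1066 and 897 of all 8278 genes tested. KIF15 and MKI67 were not tested in this line because they were not detected often enough.

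CDC25B encodes a phosphatase that activates CDK1 at centrosomes at the start of mitosis. It read 11.64 and 12.01 in BV6-treated siCtrl cells, against 10.62 and 10.81 in untreated siCtrl cells, and in siTNFR1 cells 10.78 and 10.52 with BV6, against 10.80 and 10.75 without. The BV6-treated siCtrl arrays were above all 6 others. The log2 change was 1.11 ± 0.19 in siCtrl cells (limma, adjusted p = 0.00366), and it was called in all 4 leave-one-out fits at 0.93 to 1.29. Between siTNFR1 and siCtrl cells with BV6 it was -1.17 ± 0.19 (adjusted p = 0.00292; 4.46% of all genes rose and 6.95% fell in that comparison, 11.4% in all). It was the 1 member of 42 called there, and 9 were higher at an unadjusted p below 0.05, against 1083 of all 8278 genes tested. With the replicate as a block 5 were called there, BUB3, CCNA2, KIF20A and CDCA3 higher and CDC25B lower, while the shares over all genes are from the fit without it. The interaction of BV6 with siTNFR1 was -1.24 ± 0.27 (adjusted p = 0.0313; 3.83% of all genes called), a call lost in 7 of 8 leave-one-out fits and kept only without siCtrl BV6 replicate 1.

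The 4 genes that fell are described in turn. KIF14, a kinesin of the midbody, read 6.69 and 7.05 in BV6-treated siCtrl cells, against 8.08 and 7.92 in untreated ones, a change of -1.13 ± 0.22 (limma, adjusted p = 0.00666). CDCA3, a trigger of mitotic entry, read 7.99 and 8.55 in BV6-treated cells, against 9.03 and 9.43 in untreated ones, a change of -0.96 ± 0.24 (adjusted p = 0.0279). TPX2 read 7.70 and 8.29 in BV6-treated cells, against 8.86 and 8.88 in untreated ones, a change of -0.87 ± 0.21 (adjusted p = 0.0211). The BV6 arrays of these genes all lay below the untreated ones. CENPE, the kinesin that carries chromosomes to the metaphase plate, read 7.76 and 7.88 in BV6-treated siCtrl cells, against 8.89 and 8.33 in untreated ones, a change of -0.79 ± 0.21 (adjusted p = 0.0379), and its other probe had -0.84. In siTNFR1 cells KIF14 read 7.57 and 7.26 with BV6 and 7.33 and 7.75 without, and CENPE 8.18 and 7.92 with BV6 and 7.80 and 7.95 without, so that the CENPE arrays of siTNFR1 cells without BV6 were already near those of BV6-treated siCtrl cells. All 6 kinesins tested had negative changes with BV6 in siCtrl cells, between -1.13 and -0.47 with a median of -0.69.

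**Figure D5:**
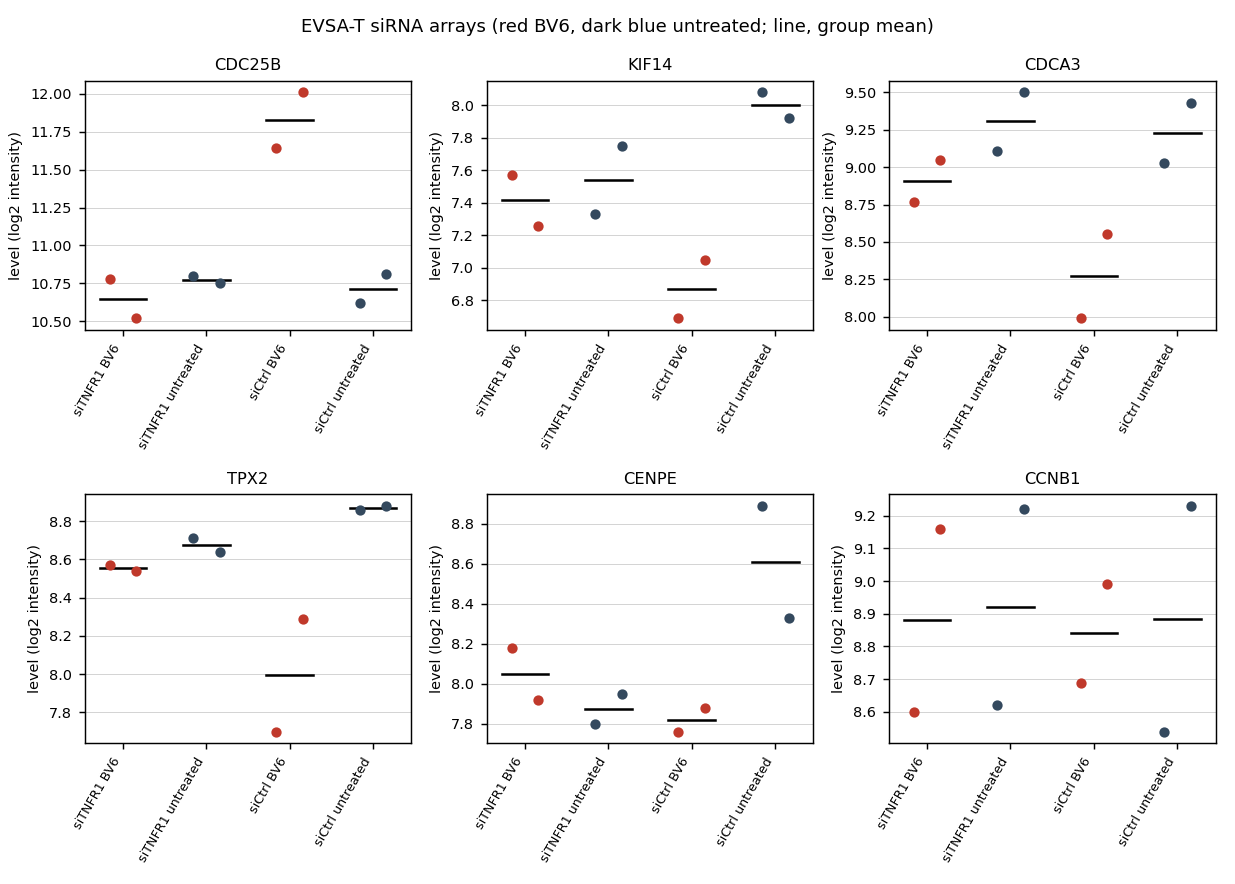
Log2 intensity of CDC25B, KIF14, CDCA3, TPX2, CENPE and CCNB1 on the EVSA-T arrays, by siRNA, with BV6-treated and untreated arrays side by side and lines at the group means. CDC25B is high on both BV6-treated siCtrl arrays (11.64 and 12.01), KIF14, CDCA3 and TPX2 are lowest there, and the CCNB1 groups overlap.

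Several members were near the threshold: CDC25C had -0.75 (limma, adjusted p = 0.0502) and KIF11 -0.70 ± 0.24 (adjusted p = 0.091). KIF11 read 7.87 and 7.79 in BV6-treated siCtrl cells, against 8.40 and 8.66 in untreated ones, without overlap. CCNB1 read 8.69 and 8.99 in BV6-treated siCtrl cells, against 8.54 and 9.23 in untreated ones, and CDK1 8.90 and 9.36 in treated cells, against 9.03 and 9.33 in untreated ones. AURKA read 12.18 and 12.71 in treated cells, against 12.51 and 12.78 in untreated ones. The entry cyclin, its kinase and AURKA overlapped between BV6-treated and untreated siCtrl cells, while TOP2A read 10.36 and 10.50 in treated cells, against 10.75 and 10.68 in untreated ones (-0.28 ± 0.20, limma, adjusted p = 0.451). Leaving out an array changed the count: 1 member (CDC25B) remained called without siCtrl untreated replicate 1 or without siCtrl BV6 replicate 1, and 3 were called without siCtrl untreated replicate 2. In siTNFR1 cells BV6 gave 0 calls of 42 (limma, 0.0725% of all genes), with a median of -0.04. At an unadjusted p below 0.05 there were 0 members, while 172 of all 8278 genes were higher and 105 lower. Without BV6, siTNFR1 against siCtrl gave 0 calls (limma, where 0.0121% of all genes rose and 0.0242% fell, 0.0362% in all). CENPE had -0.73 (limma, adjusted p = 0.44) and BUB3 0.58 (adjusted p = 0.468). At an unadjusted p below 0.05, 1 member was higher and 2 lower, against 294 and 311 of all 8278 genes.

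Other genes of the cell cycle in siCtrl EVSA-T cells moved with BV6 as well, where 6.84% of all genes tested rose and 4.6% fell. Of 63 other mitosis genes 9 fell, among them the kinesin KIFC1 (-1.16 ± 0.21; limma, adjusted p = 0.0046) and CENPI (-1.09). RBL1, the pocket protein p107, was not detected with BV6 and was at least 2.11-fold lower (adjusted p = 0.00252), and RRM2, a ribonucleotide reductase subunit gene, had -1.18. Of 10 tested genes of the list of CDK inhibitors and p53 targets, 3 rose and 0 fell. CDKN1A rose by 2.48 ± 0.19 (adjusted p = 1.01e-05): it read 9.49 and 9.70 in BV6-treated siCtrl cells, against 7.05 and 7.19 in untreated ones, and in siTNFR1 cells 8.16 and 7.80 with BV6, against 7.87 and 7.94 without. Its BV6-treated siCtrl arrays were above all others, and the interaction with siTNFR1 was -2.41 ± 0.27 (adjusted p = 0.000673). FOXM1 was not called.

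Between the lines, untreated siCtrl EVSA-T cells had lower levels of most mitotic genes than untreated siCtrl MDA-MB-231 cells. Of 44 members 27 were lower and 5 higher, where 30.1% of all genes were lower and 33.3% higher, 63.4% in all (limma), with a median of -0.57. Cell line and experiment cannot be told apart here, since the siCtrl arrays of the lines lay on different slides. BUB1 read 7.81 and 8.37 in EVSA-T, against 9.89, 10.30 and 10.06 in MDA-MB-231, a log2 difference of -2.0 ± 0.21 (adjusted p = 6.42e-08). CDK1 read 9.29 and 9.58 in EVSA-T, against 11.06, 10.96 and 11.44 in MDA-MB-231, a difference of -1.72 ± 0.23 (adjusted p = 1.38e-06). NUF2 had -2.08 (adjusted p = 6.38e-07), and UBE2C -1.86 (adjusted p = 5.02e-10), although its other probe had 0.35. The line groups of BUB1 and CDK1 were far apart. MKI67 and KIF15 were not detected on the untreated siCtrl EVSA-T arrays and were at least 1.89-fold (adjusted p = 0.000241) and at least 1.53-fold lower (adjusted p = 0.0171); of the 3 MDA-MB-231 arrays 2 measured KIF15. The 5 members higher in EVSA-T were HMMR (1.21), AURKA (1.00), TTK (0.86), KIF4A (0.65) and CDC25C (0.46). AURKA read 12.74 and 13 in EVSA-T, against 11.97, 11.99 and 11.64 in MDA-MB-231, with the lines apart.

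The response to BV6 in siCtrl cells differed between the lines for 1 member, CDC25B, where 4.9% of all genes were called (limma). After joint normalization CDC25B read 11.84 and 12.23 with BV6, against 10.82 and 11.02 without, in EVSA-T, and 10.58, 11.03 and 10.90 with BV6, against 10.89, 11.13 and 11.03 without, in MDA-MB-231. It was high with BV6 in EVSA-T and overlapped in MDA-MB-231. The difference in response, EVSA-T minus MDA-MB-231, was 1.29 ± 0.23 (adjusted p = 0.00094), and it was called under all alternatives at 1.10 to 1.49. The median difference over members was -0.21. BV6 was given at 5 nM to EVSA-T and at 50 nM to MDA-MB-231.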

How the data were processed

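Illumina HumanHT-12 arrays were deposited as 1 table of log2 values with detection p-values for 48 arrays; per the file headers it is named as not normalized, though its values, between 5.47 and 14.92, are on a log2 scale. The sources used here do not state how the authors computed the detection p-values. The deposited series matrix, also log2, served as an alternative. The values were raised to the power of 2, and each experiment was normalized separately with neqc in limma 3.58.1 (R 4.3.3; background inferred from the detection p-values, offset 16, quantile), while levels across all 20 groups used a joint fit of 48 arrays. A gene was tested where a probe was detected at p below 0.01 on at least 3 arrays in the siRNA experiment and at least 2 in the others, with its brightest probe: 9561 genes for siRNA-treated MDA-MB-231, 9742 for the time course, 8278 for EVSA-T and 10394 between lines. Differences were tested with lmFit and eBayes, with Benjamini-Hochberg adjustment over all genes and a threshold of 0.05. Groups came from the sample labels. Of 48107 probes, 30112 had 1 gene symbol, 8 several and 17984 none, from the platform annotation. All per-sample columns of the table were used.

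The members, the further lists and the tests were chosen with earlier results of these data known. Members were named where they were called (up to 12 per comparison) or had the 3 largest changes, and KIF11, CCNB1, CDK1, PLK1, AURKA, TOP2A and MKI67 throughout; other genes were the siRNA targets, NFKB2, NFKBIA, FOXM1, CDKN1A and called genes of the further lists, the largest first. Replicate numbers, given in the labels, were taken to pair arrays where a comparison had at least 3 pairs and each pair's deviations correlated above 0.1. This held for BV6 in siCtrl MDA-MB-231 (0.127 to 0.24), BV6 in siIRF1 cells (0.175 to 0.311), and siRELA and siIRF1 against siCtrl with BV6 (0.166 to 0.393 and 0.101 to 0.334). It also held for the BV6 times of 6 h (lowest r 0.152), 9 h (lowest r 0.253), 12 h (lowest r 0.253) and 15 h (lowest r 0.153). The EVSA-T interaction, over all pairs of its 4 groups (0.16 to 0.381), and the difference of response between lines met the rule as well. Each other EVSA-T comparison had only 2 pairs and did not meet it. Alternatives were quantile normalization without background correction, the series matrix, the detection filter, the probe choice, the replicate or the slide as a block, single slides and leaving out each array. Promoter windows came from RefSeq (GRCh38.p14). The arrays have no read depth, and their number limits the precision. Scripts were tested on simulated data. Figures were drawn with matplotlib 3.10.9.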

Additional observations from a re-analysis of the deposited data

Results flagged for a closer look

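CDC25B, the phosphatase gene that activates CDK1 at the start of mitosis, responded to BV6 differently between groups in both tests of a difference that called a mitotic gene. In EVSA-T its interaction of BV6 with siTNFR1 was -1.24 ± 0.27 (limma, adjusted p = 0.0313): BV6 gave a log2 change of 1.11 ± 0.19 in siCtrl cells, while siTNFR1 cells read 10.78 and 10.52 with BV6 and 10.80 and 10.75 without. The interaction was between -1.42 and -1.06 in the leave-one-out fits and passed the threshold in 1 of 8. Between the lines, the BV6 response of CDC25B in siCtrl cells was 1.29 ± 0.23 higher in EVSA-T than in MDA-MB-231 (limma, adjusted p = 0.00094), with doses of 5 nM and 50 nM.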

How the results depend on the processing

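Of 493 counts and medians recomputed under settings other than leaving out an array, 439 stayed within 1.5 times the reported count or within the spread of the reported median and 54 moved; of 1036 values of single genes 951 kept their call, 80 lost it, 4 gained it and 1 reversed. The reversal was CDC25C in siRELA cells with BV6, at 0.21 with the brightest probe within the experiment. On leaving out arrays, NUF2 at 3 h reversed to -0.26. The causes were not tested.

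With siRELA and BV6, 9 members were called without background correction, 9 in the series matrix, 9 with the replicate block and 8 with the slide as a block, against 3 and 2 on slides 1 and 2 alone, where fewer arrays remain. On slides 1 and 2 alone the counts were 7 and 2 for siRELA without BV6, 2 and 1 for siIRF1 without BV6, 3 and 1 for siIRF1 with BV6, and 0 and 0 for siTNFR1 in both treatments. For siTNFR1 without BV6 the count was 1 with no detection filter and 1 with the brightest probe within the experiment. BV6 in siCtrl MDA-MB-231 had 1 call with the replicate block and 1 with the slide as a block. Medians on slide 1 were -0.21 for BV6 in siTNFR1 cells, -0.05 for BV6 in siIRF1 cells, -0.15 for siTNFR1 with BV6 and -0.03 for the interaction with siTNFR1 (0.00 on slide 2), and that of the interaction with siRELA was -0.00 on slide 2. At 15 h of BV6 the count was 3 without background correction, 3 in the series matrix, 3 with the replicate block, 4 with the slide as a block, and 0 with no detection filter, on slide 3 alone or against untreated cells of the same hour. Between 15 h and 3 h it was 2 without background correction, 2 in the series matrix, 2 with the replicate block, 1 with the slide as a block and 1 with detection on every array. At 12 h it was 2 with the replicate block, 2 with the slide as a block and 0 on slide 3, where the median was -0.28, and at 9 h the median was -0.17 with the slide as a block and -0.20 on slide 3. In EVSA-T, BV6 in siCtrl cells had 2 calls with no detection filter and 11 with the replicate block. There siTNFR1 against siCtrl with BV6 had 2 calls without background correction, 2 in the series matrix, 2 with detection on every array and 5 with the replicate block, and the interaction had 0 with no detection filter. EVSA-T against MDA-MB-231 had 20 with detection on every array. The gap between the highest and the lowest group of the median deviation was 1.22 as reported and 1.10 in the series matrix and without background correction. The replicate block moved no other count of called members by over 1.5 times. Shares over all genes given in the text are those of the reported fits, not of these alternatives.

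Leaving out arrays in turn, counts of called members ran between 4 and 11 for siRELA without BV6, 4 and 6 with BV6, 3 and 9 for siIRF1 without BV6, 2 and 8 with BV6, 0 and 1 for siTNFR1 in each treatment, 0 and 1 for BV6 in siCtrl MDA-MB-231, 0 and 2 at 3 h, 0 and 2 at 12 h, 0 and 1 at 15 h, 0 and 4 between 15 h and 3 h, 1 and 5 for BV6 in siCtrl EVSA-T, 1 and 3 for siTNFR1 with BV6 in EVSA-T, 0 and 1 for the EVSA-T interaction, 1 and 2 for the difference in response and 24 and 31 between lines. Medians ran between -0.32 and -0.21 for siRELA without BV6, -0.22 and -0.11 with BV6, -0.15 and -0.05 for BV6 in siIRF1 cells, -0.20 and 0.02 at 9 h, -0.28 and -0.10 at 12 h, -0.57 and -0.22 for BV6 in siCtrl EVSA-T, -0.31 and -0.00 for the difference in response, -0.02 and 0.10 for the interaction with siIRF1, 0.00 and 0.12 for that with siTNFR1, and 0.07 and 0.23 for untreated cells at 15 h against 0 h.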
